A study of Mus musculus with 3 samples.

Results

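Gfra1-positive stem-like spermatogonia are the germ cells of the testis that carry transcripts of the receptor for glial cell line-derived neurotrophic factor (GDNF) and lack those of the receptor KIT. They were chosen by a fixed rule on the unique molecular identifiers (UMIs) of single cells: at least 1 UMI of Gfra1, at least 1 UMI of Etv5, Ret, Egr4 or Id4, at least 1 UMI of the germ cell genes Ddx4 or Dazl, and 0 UMIs of Kit and of Prdm9. The rule found 1065 of 19396 cells in 3 libraries. These were 703 of 7038 cells in the cKO library, 132 of 6124 cells in the control library and 230 of 6234 cells in the Tomato-negative library.

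The cKO library came from Amh-cre; Scf fl/fl mice, in which Cre is driven in Sertoli cells and removes Scf (also called Kitl, the gene of stem cell factor, the ligand of KIT). The control library came from Scf fl/fl littermates without Cre, so both carried the floxed allele. Both groups were 6 weeks old and were sorted to deplete haploid cells. The Tomato-negative library came from tamoxifen-treated mice that carry Ddx4-creER and R26tdTomato and were 8 weeks old, sorted to remove germ cells that had recombined. It carries no Scf mutation and differs from the control in strain construct, age and sort, so it stands beside the comparison as a second set of Scf-bearing cells and not as its control. Each library was made from the pooled cells of several mice, and there was 1 library per condition. No difference between mice can therefore be estimated and no test was possible. Every interval in the text covers counting error only.

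Spermatogonia divide at the wall of the seminiferous tubule, and a small part of them renew the line. GDNF, secreted by Sertoli and peritubular cells, binds GFRA1, which signals through the kinase RET. ETV5, BCL6B, LHX1 and ID4 are transcription regulators linked to that signal or to self-renewal in the mouse, and NANOS2, an RNA-binding protein, holds cells in the undifferentiated state. On the way to differentiation the cells lose GFRA1, pass through a progenitor state marked by Neurog3, Sox3, Rarg and Upp1, answer retinoic acid with Stra8 and gain KIT.

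The kept cells had a median of 6336 UMIs in the cKO library, 6090 in the control library and 13450 in the Tomato-negative library. Of their barcodes, 14 were shared between the cKO and control libraries, and 0 of the shared barcodes belonged to a rule cell. Germ cells, those with a Ddx4 or Dazl UMI, were 2912 of 7038 kept cKO cells and 5125 of 6124 kept control cells. Sums over all kept cells therefore cover different mixes of cells. Kitl stood at 54.2 CPM (the UMIs of a gene set against all UMIs of the cells summed, on the usual CPM scale) over all kept cKO cells and 3.37 CPM over all kept control cells. Over myoid-like cells without a germ cell UMI, of which there were 2190 in the cKO library and 551 in the control library, it stood at 43.8 CPM (40.3 to 47.6) and 43.1 CPM (35.7 to 51.5). Sertoli-led cells with Sox9, in which the deletion acts, numbered 22 in the cKO library with 7 Kitl UMIs (28.9 CPM, 11.6 to 59.7) and 3 in the control library with 11 Kitl UMIs (370.5 CPM, 185 to 663). These cells are too few to check the deletion, and the part of the Kitl transcript that the 3′ tags read need not lie in the deleted part.

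Before any level is compared, the content of the gate has to be given, because the label did not hold equally in the 3 libraries. A rule cell was called spermatogonia-led when its UMIs of a list of spermatogonial genes outnumbered both its UMIs of late spermatocyte markers and its UMIs of all somatic marker lists together. This division was added after the data were seen. It held for 650 of 703 cKO rule cells (92.5%, exact 95% interval 90.2 to 94.3), for 76 of 132 control rule cells (57.6%, 48.7 to 66.1) and for 122 of 230 Tomato-negative rule cells (53%, 46.4 to 59.6). The spermatogonial genes had a median of 26.4 UMIs per 10000 in the spermatogonia-led cKO cells, 23.7 in those of the control and 26.6 in those of the Tomato-negative library.

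The rule cells that were not spermatogonia-led were of a different kind in each genotype. In the control library 53 of 56 of them, and in the Tomato-negative library 105 of 108, had at least as many UMIs of late spermatocyte markers as of spermatogonial genes. In the cKO library 2 of 53 did. The division was a gap and not a slope: 1 cKO, 51 control and 105 Tomato-negative rule cells had at least 100 late marker UMIs per 10000, and 0 rule cells of any library lay between 50 and 100. The cells past the gap were deep, with a median of 49980 UMIs in the control and 82660 in the Tomato-negative library over all cells that were not spermatogonia-led, against 10770 and 16090 UMIs in the spermatogonia-led cells. They also had few X-linked transcripts. A median of 0.0333% of UMIs in the control cells and 0.3% in the Tomato-negative cells came from X-linked genes, against 2.0% and 1.98% in the spermatogonia-led cells. The label of a stem-like spermatogonium therefore does not describe them, although each held a Gfra1 UMI, a partner UMI and a germ cell UMI.

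In the cKO library 51 of the 53 remaining cells were led by somatic markers, with a median of 81 UMIs of myoid and 25 UMIs of stromal markers. Scrublet, which marks cells that resemble the sum of others, called 48 of these 51 cells doublets (94.1%). It called 9 of the 650 spermatogonia-led cKO cells, 1 of the 76 in the control and 1 of the 122 in the Tomato-negative library. Mitochondrial transcripts took a median of 2.54% of UMIs in the spermatogonia-led cKO cells, 2.08% in those of the control and 2.1% in those of the Tomato-negative library.

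**Figure D1:**
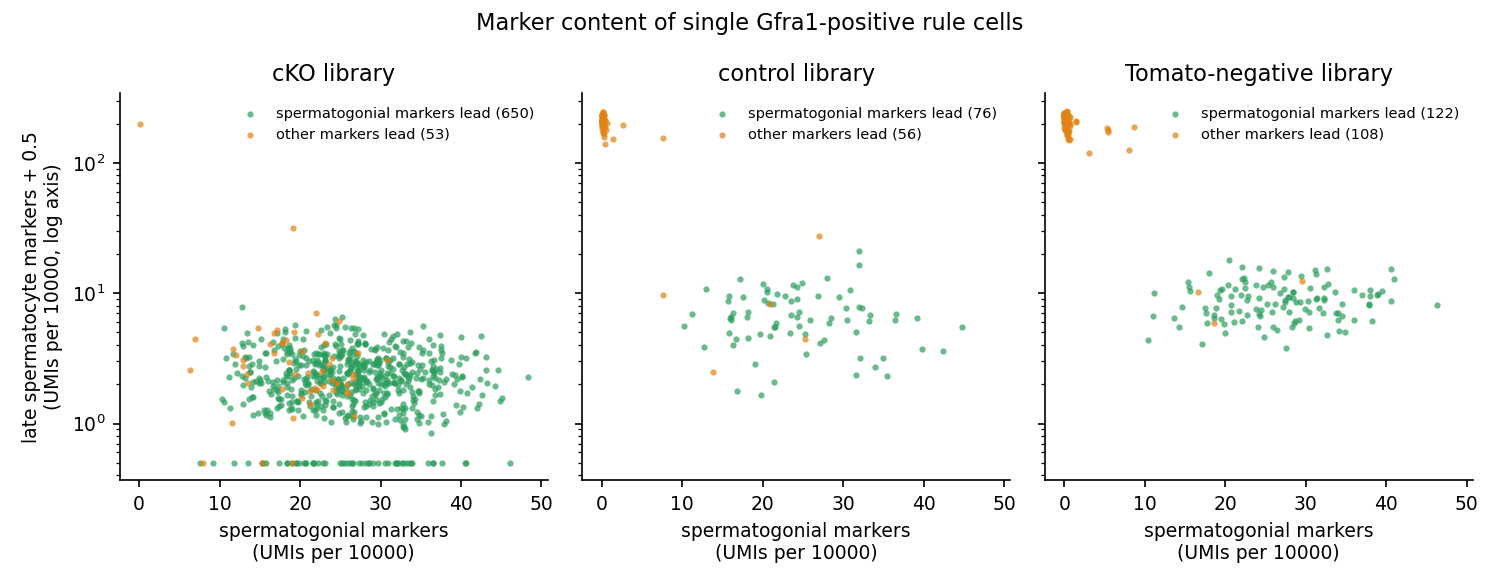
Late spermatocyte marker UMIs per 10000 (y axis) against spermatogonial UMIs per 10000 (x axis) for every rule cell, in a panel each for the cKO, control and Tomato-negative library, with the y axis on a log scale after 0.5 was added. Green cells are spermatogonia-led and orange cells are the others. Control and Tomato-negative rule cells fall into 2 separate clouds with 51 and 105 cells at or above 100 late marker UMIs per 10000, where the cKO library has 1.

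**Figure D2:**
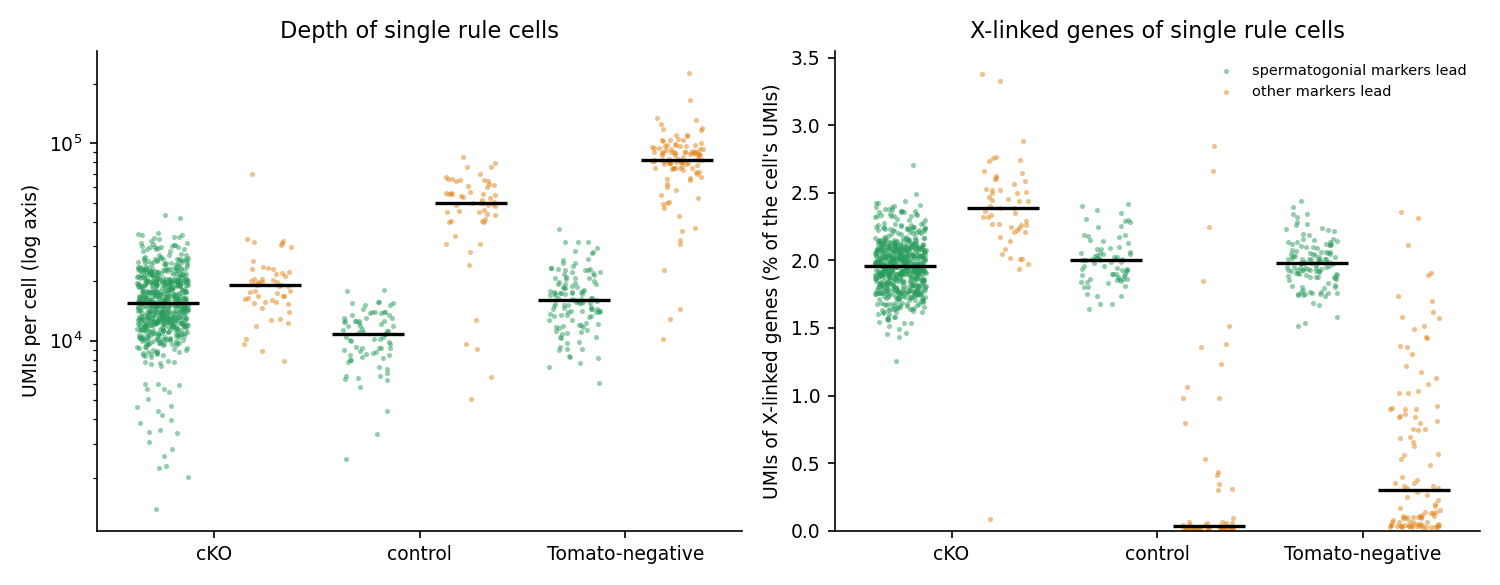
Total UMIs per cell on a log scale (left) and share of UMIs from X-linked genes in percent (right) for single rule cells of the cKO, control and Tomato-negative libraries, with spermatogonia-led cells in green, the others in orange and medians as bars. Spermatogonia-led cells lie near 2% X-linked UMIs in every library (medians 1.96% cKO, 2.0% control, 1.98% Tomato-negative), and the other control and Tomato-negative cells are deeper, with medians of 0.0333% and 0.3%.

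All rule cells together differed widely between the libraries. Of 16163 genes with at least 20 counts over the cKO and control libraries, 6775 (41.9%) were at least 2-fold higher in cKO and 3936 (24.4%) at least 2-fold lower, and the median log2 difference of cKO over control was 0.69. Smcp, of the sperm midpiece, stood at 0.172 CPM in cKO rule cells, 205 CPM in control and 571 CPM in Tomato-negative rule cells. Hmgb4, a chromatin protein of spermatocytes and spermatids, had 0 CPM in cKO, 110 CPM in control and 382 CPM in Tomato-negative rule cells. On the high side stood stromal genes, among them Dcn, the matrix proteoglycan decorin. It had 94.0 CPM in cKO, 8.16 CPM in control and 1.82 CPM in Tomato-negative rule cells. Id3, which is not a stromal marker, was higher as well, with 95.4, 9.28 and 9.64 CPM in the same order. All 12 late spermatocyte markers and all 13 measured spermatid transcripts were at least 2-fold lower in cKO. Of the 15 measured stem genes, 12 were at least 2-fold higher. Among the spermatogonia-led cells, as shown further on, 1 of the same 15 was. All values from here on are for the spermatogonia-led cells unless the text says otherwise.

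These cells took a larger share of the germ cells in the cKO library, and how much larger depended on what they were counted against. They made up 650 of 2912 germ cells (22.3%, 20.8 to 23.9) in the cKO library, 76 of 5125 (1.48%, 1.17 to 1.85) in the control and 122 of 4904 (2.49%, 2.07 to 2.96) in the Tomato-negative library. The ratio of cKO over control was 15.1 (11.9 to 19.4). Against all kept cells the ratio was 7.44 (5.86 to 9.57), with shares of 9.24%, 1.24% and 1.96% in cKO, control and Tomato-negative libraries. Against myoid-like cells without a germ cell UMI, which are not germ cells, there were 29.7 per 100 in cKO, 13.8 per 100 in control and 32.4 per 100 in Tomato-negative, a ratio of 2.15 (1.69 to 2.77). More such cells, fewer cells of other kinds and a different yield of the sort cannot be told apart in these libraries. By protein staining of testis sections, the study reported comparable numbers of GFRA1-positive and of PLZF-positive spermatogonia in cKO and control mice.

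Within the spermatogonia the balance between classes differed too. Progenitor-like cells had no Gfra1, Kit, Prdm9 or Stra8 UMI and at least 2 of 9 progenitor and undifferentiated genes. Kit-positive-like cells had a Kit UMI, no Gfra1 or Prdm9 UMI and a gene of differentiating cells. Both were limited to spermatogonia-led cells, as above. There were 650 Gfra1-positive, 358 progenitor-like and 319 Kit-positive-like cells in the cKO library. There were 76, 164 and 688 in the control library and 122, 147 and 640 in the Tomato-negative library. The Gfra1-positive cells were 49.0% (46.3 to 51.7) of the 3 classes in cKO, 8.19% (6.51 to 10.1) in control and 13.4% (11.3 to 15.8) in Tomato-negative. The cKO cells were also deeper, with a median of 15410 UMIs against 10770 in the control, and a UMI of Gfra1 is easier to see in a deeper cell. With every cell thinned to 3000 UMIs before the rule was applied, the ratio of the shares of germ cells was 23.2 (13.7 to 42.1). It rests on 200 cKO and 15 control cells, and its interval overlaps that of the unthinned ratio.

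The counts that chose the cells are given as a description only. Gfra1, on chr19:58235604-58455909 of GRCm38 on the minus strand, summed to 127 CPM in cKO cells (interval 121 to 134). It summed to 159 CPM in control cells (interval 133 to 189), and Tomato-negative cells had 143 CPM (127 to 160). Of the 703 cKO rule cells 343 held exactly 1 Gfra1 UMI, which is the threshold, as did 92 of the 132 control and 137 of the 230 Tomato-negative rule cells. The highest count was 11 in cKO, 7 in control and 10 in Tomato-negative. Just outside the rule were 98 cKO, 26 control and 40 Tomato-negative cells that fulfilled it but for exactly 1 Kit UMI, and 13, 11 and 15 cells in the same order that had Gfra1 without any of the 4 partner genes.

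The partner genes are the kinase Ret, the ETS factor Etv5, the zinc finger factor Egr4 and the HLH protein Id4. Ret (chr6:118151745-118197718) stood at 66.8 CPM in cKO, 88.6 CPM in control and 91.3 CPM in Tomato-negative cells. Etv5 (chr16:22381309-22439719) stood at 40.7, 48.0 and 63.6 CPM in cKO, control and Tomato-negative cells. Egr4 (chr6:85511121-85513589) was the most abundant partner, at 291, 261 and 240 CPM in the same order. Id4 (chr13:48261228-48266026) stood at 56.4, 38.1 and 52.5 CPM. Etv5 and Id4 also had counts outside germ cells: in myoid-like cells without a germ cell UMI, Etv5 had 33.5, 27.0 and 24.8 CPM and Id4 had 59.1, 39.5 and 65.5 CPM in cKO, control and Tomato-negative libraries. Gfra1 had 0.236, 0 and 0.72 CPM and Ret 0.472, 0 and 0 CPM in those cells.

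Apart from the rule, cKO cells were near the control cells for most of what was measured. Of 13626 genes with at least 20 counts over both libraries, 615 (4.51%) were at least 2-fold higher in cKO and 829 (6.08%) at least 2-fold lower, with a median log2 difference of -0.09. The control sum rests on 812975 UMIs and the cKO sum on 10556037, so 3 UMIs are 3.69 CPM in the control and 0.284 CPM in cKO, and the level of a low gene is limited by the control. Lists of genes are described below by the number of members past 2-fold among those with 20 counts, beside these 2 shares of all genes. The lists are descriptions and were not tested.

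Among the stem genes, those of self-renewal and of the least differentiated cells, 1 of 15 was at least 2-fold higher and 3 were at least 2-fold lower, with a median log2 difference of -0.28. Their summed level was 297 CPM in cKO, 330 CPM in control and 297 CPM in Tomato-negative cells, a log2 difference of cKO over control of -0.15 (-0.33 to 0.04). Lhx1, a LIM homeobox factor on chr11:84518284-84525535, was the only member of the list past 2-fold whose interval lay on 1 side of 0. It had 23.3 CPM in cKO, 54.1 CPM in control and 20.9 CPM in Tomato-negative cells, a log2 difference of -1.23 (-1.68 to -0.72). The control value rests on 44 UMIs in 17 of 76 cells, of which the 3 cells with most held 15. The cKO value rests on 246 UMIs in 129 of 650 cells. The control stood above both of the other libraries.

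For the other measured stem genes the counting intervals of cKO over control contained 0. Eomes, a T-box factor that marks a slowly renewing part of these cells in the mouse, had 17.4 CPM in cKO, 22.1 CPM in control and 10.7 CPM in Tomato-negative cells, a log2 difference of -0.38 (-1.05 to 0.44). Nanos2 had 6.16, 8.61 and 12.1 CPM in the same order. Foxc2, a forkhead factor, had 38.4, 33.2 and 37.4 CPM, and Bcl6b, a repressor downstream of GDNF, had 19.9, 16.0 and 19.9 CPM. Mcam, a surface adhesion protein and the most abundant member, had 102 CPM in cKO, 84.9 CPM in control and 114 CPM in Tomato-negative cells. Tert, the catalytic subunit of telomerase, had 4.36, 8.61 and 5.34 CPM with an interval of -2.14 to 0.41 on the log2 scale, and Pax7 had 2.18, 4.92 and 1.94 CPM with -2.72 to 0.82. Both intervals contain 0.

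In genes of undifferentiated spermatogonia at large, 0 of 17 were at least 2-fold higher and 1 was at least 2-fold lower, and the summed level was 2817 CPM in cKO, 2821 CPM in control and 2892 CPM in Tomato-negative cells. Zbtb16, the PLZF repressor, had 250.4 CPM in cKO, 261 CPM in control and 272 CPM in Tomato-negative cells, a log2 difference of -0.06 (-0.26 to 0.15). Sall4, a zinc finger factor of the same cells, had 192, 167 and 200 CPM. The 1 member past 2-fold had a log2 difference of -1.38. Within this even sum, 4 members had intervals off 0, of which 3 abundant ones with differences under 2-fold are given here. Uchl1, a ubiquitin hydrolase, was higher in cKO, with 1063 CPM in cKO, 757 CPM in control and 891 CPM in Tomato-negative cells, a log2 difference of 0.49 (0.37 to 0.61). Ccnd2, the D-type cyclin of undifferentiated spermatogonia, was lower in cKO, with 414, 618 and 563 CPM and a log2 difference of -0.58 (-0.71 to -0.44). Epcam, an epithelial adhesion protein, had 199.9, 292 and 174 CPM and -0.55 (-0.74 to -0.34). For Ccnd2 and Uchl1 the Tomato-negative level lay between the others, and for Epcam it lay below both. This list overlaps the spermatogonial list that was used to choose the cells, which holds Ccnd2. The levels of shared genes, and the even sum that they enter, are therefore a description only.

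The receptors and response genes of GDNF and of fibroblast growth factors (FGF), which act on the same cells, were of like level in the 2 genotypes. Of 16 measured, 2 were at least 2-fold higher and 0 at least 2-fold lower, and the sum was 356 CPM in cKO, 351 CPM in control and 299 CPM in Tomato-negative cells, a log2 difference of 0.02. Etv4, a relative of Etv5, had 26.7 CPM in cKO, 30.8 CPM in control and 30.6 CPM in Tomato-negative cells. Dusp6, a phosphatase that is induced by ERK and brakes it, had 51.7, 45.5 and 41.3 CPM in the same order, and the ERK inhibitor Spry4 had 13.4, 13.5 and 13.1 CPM. Fgfr1 had 30.9, 27.1 and 29.1 CPM. Id3, an inhibitor of bHLH factors that answers BMP, was at 34.5 CPM in cKO, 17.2 CPM in control and 13.6 CPM in Tomato-negative cells. Its log2 difference was 0.95 (0.24 to 1.89), which is under 2-fold. In cKO myoid-like cells without a germ cell UMI the same list summed to 4796 CPM. The part of somatic RNA in these levels was not tested.

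**Figure D3:**
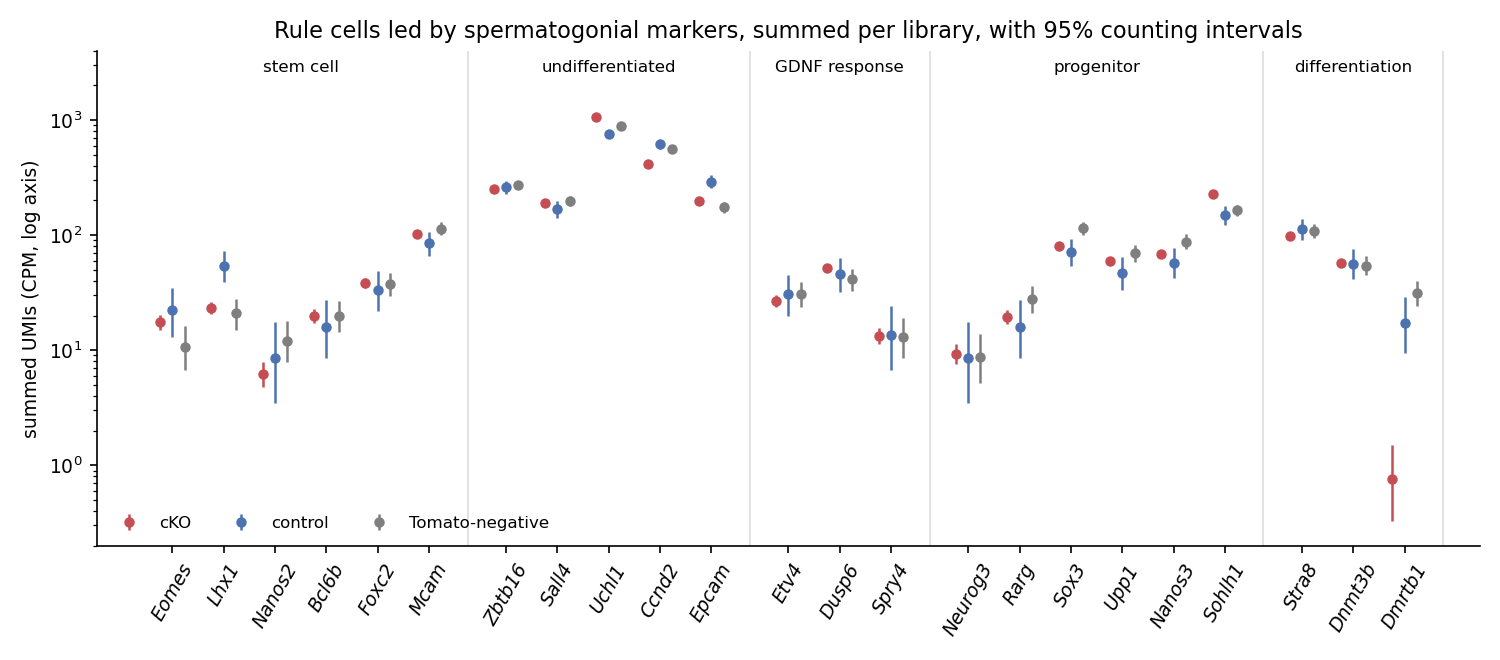
Level in CPM on a log scale (y axis) of genes of the stem, undifferentiated, GDNF and FGF, progenitor and differentiating lists (x axis) in spermatogonia-led cells of the cKO, control and Tomato-negative libraries, in that order. Points are summed levels and whiskers exact 95% Poisson intervals: Zbtb16 is at 250.4, 261 and 272 CPM, whereas Lhx1 is at 23.3, 54.1 and 20.9 CPM and Dmrtb1 at 0.758, 17.2 and 31.6 CPM.

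Progenitor genes ran slightly higher in cKO. None of the 7 was past 2-fold, the median log2 difference was 0.23, and the sum was 500 CPM in cKO, 381 CPM in control and 517 CPM in Tomato-negative cells, a log2 difference of 0.39 (0.22 to 0.56). Sohlh1, a bHLH factor of early differentiation, carried most of it, with 228 CPM in cKO, 148.8 CPM in control and 165 CPM in Tomato-negative cells and a log2 difference of 0.61 (0.35 to 0.89). Neurog3 had 9.28, 8.61 and 8.74 CPM in the same order. Sox3 had 80.4, 71.3 and 115 CPM, Upp1, a uridine phosphorylase, 60.2, 46.7 and 69.9 CPM, and Rarg, the retinoic acid receptor of progenitors, 19.6, 16.0 and 27.7 CPM. The intervals of these 4 contain 0, and the Tomato-negative sum was as high as that of cKO. Sohlh1 is also in the spermatogonial list that was used to choose the cells, so its level, and its part in the sum, are a description only.

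Among 9 genes of differentiating spermatogonia, 1 was at least 2-fold higher and 2 were at least 2-fold lower. Stra8, the target of retinoic acid, had 97.8 CPM in cKO, 113 CPM in control and 109 CPM in Tomato-negative cells, a log2 difference of -0.22 (-0.52 to 0.11). Dnmt3b, a de novo DNA methyltransferase, had 56.9, 56.6 and 54.4 CPM. The lower members were Dmrtb1 (chr4:107676290-107684230), a DM-domain factor of the step from mitosis to meiosis, with 0.758 CPM in cKO, 17.2 CPM in control and 31.6 CPM in Tomato-negative cells, and Prss50, a testis protease, with 1.14, 16.0 and 6.31 CPM. Their log2 differences were -4.47 (-5.97 to -3.15) and -3.81 (-5.08 to -2.56). Dmrtb1 was also at 0.709 CPM in cKO, 27.0 CPM in control and 25.6 CPM in Tomato-negative myoid-like cells without a germ cell UMI, which should lack it. A Dmrtb1 UMI was found in 1.23% of cKO, 15.8% of control and 37.7% of Tomato-negative cells, and in 0.411%, 12.7% and 16.2% of those myoid-like cells, whose median depths were 5711, 5223 and 7131 UMIs. Thinned to 3000 UMIs the shares were 0%, 5.33% and 9.84% against 0.244%, 7.81% and 6.18%. The control share stood above that of the myoid-like cells before thinning and below it at equal depth, and the Tomato-negative share stood above it at both depths. The part of free RNA in the Dmrtb1 levels was not tested.

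The pathway of retinoic acid had 2 of 15 members at least 2-fold higher and 2 at least 2-fold lower, with sums of 381 CPM in cKO, 362 CPM in control and 351 CPM in Tomato-negative cells. Crabp1, a cytoplasmic carrier of retinoic acid, had 141, 121 and 121 CPM. Cyp26b1, which degrades retinoic acid, had 10.5 CPM in cKO, 1.23 CPM in control and 0 CPM in Tomato-negative cells. It had 111 UMIs in 75 cKO cells, of which 18 were in 1 cell. Myoid-like cells had 2514, 2427 and 959 CPM of Cyp26b1. Rdh11, a retinal reductase, had 3.13, 13.5 and 4.86 CPM, and the myoid-like cells had 6.38, 13.2 and 12.6 CPM.

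The PI3K, AKT and mTOR pathway, through which KIT signals, was even. Of 19 genes 0 were past 2-fold in either direction, 0 had an interval off 0, and the sum was 1249 CPM in cKO, 1244 CPM in control and 1159 CPM in Tomato-negative cells. Mtor, its growth kinase, had 82.3 CPM in cKO, 78.7 CPM in control and 70.9 CPM in Tomato-negative cells. Kit itself is at 0 by the rule.

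Summed transcripts of the cell cycle were near the control level in cKO cells, and both sums stood above those of Tomato-negative cells. None of 42 S phase genes and none of 53 G2/M genes was past 2-fold, with S phase sums of 5949 CPM in cKO, 6233 CPM in control and 5140 CPM in Tomato-negative cells and G2/M sums of 9284, 9497 and 6468 CPM. Mki67, a marker of cells in cycle, had 265 CPM in cKO, 347 CPM in control and 114 CPM in Tomato-negative cells, a log2 difference of cKO over control of -0.39 (-0.57 to -0.21). Top2a, which decatenates DNA before division, had 408, 428 and 225 CPM. An Mki67 UMI was found in 59.1% of cKO, 59.2% of control and 36.9% of Tomato-negative cells, and in 35.3%, 38.7% and 15.6% after thinning to 3000 UMIs.

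The other fixed lists are given by their counts. Of 26 genes of meiotic prophase 0 were at least 2-fold higher and 2 at least 2-fold lower, and the sum was 3201 CPM in cKO, 3132 CPM in control and 2859 CPM in Tomato-negative cells. Spo11, which makes the breaks of meiotic recombination, had 7.86, 19.7 and 6.80 CPM and a log2 difference of -1.36 (-2.11 to -0.45). Of 16 genes of apoptosis and p53, 1 was at least 2-fold lower: Pmaip1, the BH3 protein NOXA, had 28.9 CPM in cKO, 62.7 CPM in control and 19.9 CPM in Tomato-negative cells, a log2 difference of -1.13 (-1.55 to -0.66). As for Lhx1, the control lay above both of the other libraries for Spo11 and Pmaip1. Of 16 glycolytic genes 0 were at least 2-fold higher and 2 at least 2-fold lower. Slc2a3, a glucose transporter, had 14.2, 39.4 and 37.9 CPM (-1.49, interval -2.03 to -0.87), and Tpi1 had 8.43, 19.7 and 8.26 CPM. The piRNA pathway, which silences transposons, had 1 of 13 genes past 2-fold, Tdrd6 with 1.04, 13.5 and 9.71 CPM. Tdrd6 was at 0.315, 10.7 and 6.48 CPM in myoid-like cells without a germ cell UMI. Of 7 DNA methylation genes 1 was at least 2-fold lower, and Dnmt1, the maintenance enzyme, had 302, 368 and 250 CPM. None of the 7 rule genes with counts and none of the 10 genes of the spermatogonial list was past 2-fold. The spermatogonial list summed to 2716 CPM in cKO, 2492 CPM in control and 2714 CPM in Tomato-negative cells. Both lists were used to choose the cells, so their levels are a description only. Of 83 ribosomal protein genes 1 was at least 2-fold higher and 2 at least 2-fold lower. Of 489 X-linked genes 26 were at least 2-fold higher and 28 at least 2-fold lower, and their sum was 19580 CPM in cKO, 20080 CPM in control and 19800 CPM in Tomato-negative cells.

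Genes that respond to the dissociation of tissue had 3 of 16 members at least 2-fold higher in cKO and 0 at least 2-fold lower, with a sum of 1772 CPM in cKO, 1934 CPM in control and 1551 CPM in Tomato-negative cells. The higher members were Nr4a1, an orphan nuclear receptor, with 25.5 CPM in cKO, 9.84 CPM in control and 20.4 CPM in Tomato-negative cells, Zfp36, which destabilizes mRNA, with 43.5, 18.5 and 44.2 CPM, and Hspa1b with 5.21, 0 and 5.83 CPM. Fos had 214, 311 and 256 CPM in the same order. For Nr4a1, Zfp36 and Hspa1b the control lay below both of the other libraries. The part of dissociation in other levels was not tested.

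Of the fixed lists with counts in both libraries, those of later germ cells differed most in summed level, and the same transcripts were found in cells that should have none. Of 8 measured late spermatocyte markers 6 were at least 2-fold lower in cKO, and of 5 measured spermatid transcripts all 5 were. The late marker list was also used to choose the cells. The late markers summed to 185 CPM in cKO, 620 CPM in control and 835 CPM in Tomato-negative cells and the spermatid transcripts to 23.9, 233 and 428 CPM. Ldhc, the lactate dehydrogenase of spermatocytes, had 5.02 CPM in cKO, 167 CPM in control and 204 CPM in Tomato-negative cells (-5.05, -5.54 to -4.59). In myoid-like cells without a germ cell UMI it had 6.54, 228 and 178 CPM. Meig1, a gene of meiotic cells, had 8.81, 127 and 250.1 CPM in spermatogonia-led cells and 5.51, 190 and 225 CPM in the myoid-like cells. Prm1, a sperm protamine, had 1.42, 60.3 and 124 CPM against 2.52, 121 and 122 CPM. Rsph1, of the sperm axoneme, had 9.57, 75 and 65.1 CPM against 4.96, 81.2 and 58.0 CPM. Within each library these 4 genes stood at the same order of magnitude in both kinds of cell. Absence of the later germ cells from a library and a change within the stem-like cells cannot be told apart from such values, and no difference between genotypes in the stem-like cells is read from them. Hspa2 and Clgn, of the late list as well, had 23.7 and 22.2 CPM in cKO, 59.0 and 39.4 CPM in control and 53.9 and 55.4 CPM in Tomato-negative cells.

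The genes of somatic cells were low in spermatogonia-led cells of every library. Their lists were used to choose these cells, so the low levels are a description only. The 4 measured myoid markers summed to 54.7 CPM in cKO, 20.9 CPM in control and 26.2 CPM in Tomato-negative cells, against 22060, 25600 and 31580 CPM in the myoid-like cells, and 2 of the 4 were at least 2-fold higher in cKO. Acta2, smooth muscle actin, had 22.2, 4.92 and 7.29 CPM in spermatogonia-led cells, and Myh11 had 7.11, 0 and 1.94 CPM. Stromal markers summed to 44.8, 20.9 and 18.5 CPM with 1 of 7 higher, Dcn at 12.9, 2.46 and 1.94 CPM. Sertoli markers summed to 19.9, 17.2 and 162 CPM with 1 of 4 higher, Wt1 at 6.54, 0 and 8.26 CPM. Endothelial markers summed to 42.5, 43.0 and 39.8 CPM and immune and blood markers to 9.09, 14.8 and 3.88 CPM. Star was the only Leydig gene with 20 counts, and the Leydig list summed to 5.12, 0 and 1.94 CPM. The defining markers Myh11 and Cnn1 of myoid cells, Lum of stroma and all 5 Leydig genes were at 0 in the control cells. The part of somatic RNA in the other values was not tested.

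**Figure D4:**
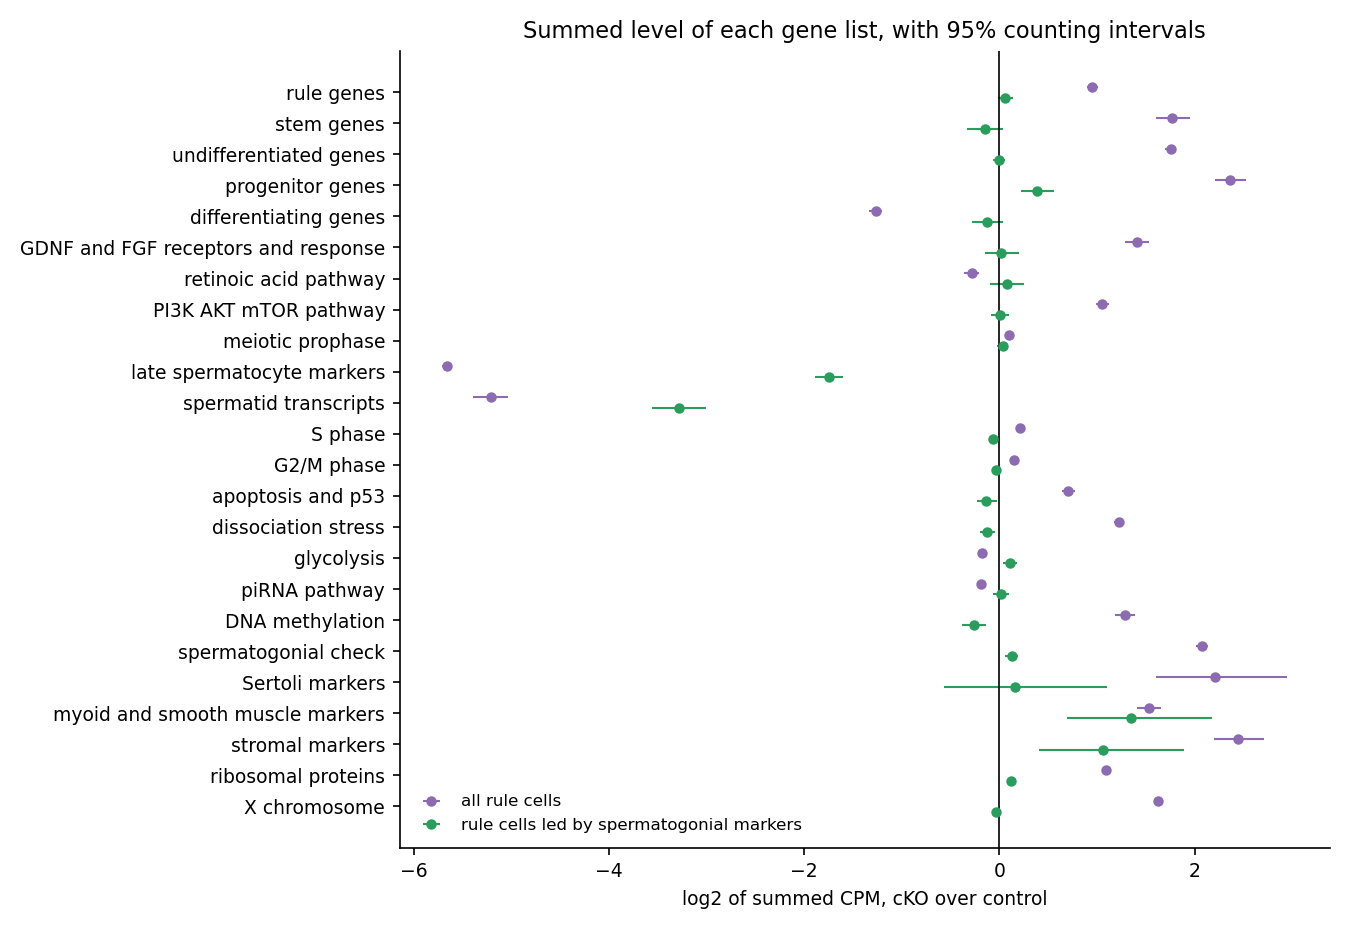
Log2 difference of summed level, cKO over control (x axis), of 24 gene lists (y axis) in all rule cells (purple) and in spermatogonia-led cells (green), with exact 95% intervals of counting error. In spermatogonia-led cells the stem, undifferentiated, GDNF and FGF, PI3K and cell cycle lists lie near 0 (stem -0.15, GDNF and FGF 0.02), and the late spermatocyte and spermatid lists lie at -1.75 and -3.28.

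Among genes with at least 100 counts, ranked by whichever interval limit lay closer to 0, the 12 lowest were AA467197, Cetn1, Dkkl1, Fabp9, Fam229b, Gm10076, Gm11837, Hist1h2ae, Hspb9, Ldhc, Meig1 and Rsph1. Fabp9, of the sperm perinuclear theca, had 7.67 CPM in cKO, 66.4 CPM in control and 82.1 CPM in Tomato-negative cells, and 3.38, 101 and 77.4 CPM in the myoid-like cells. Hist1h2ae, a histone H2A gene, had 19.7, 71.3 and 56.3 CPM in spermatogonia-led cells and 1.10, 1.42 and 1.80 CPM in the myoid-like cells. Among the 12 highest were Acta2, Gm10457, Gm15459, Gm34680, Gm43409, Hspb1, Rps10, Rps2-ps10, Snhg9, Xlr5a and Zcchc12. Rps10, of the small ribosomal subunit, had 704 CPM in cKO, 354 CPM in control and 452 CPM in Tomato-negative cells, a log2 difference of 0.99 (0.82 to 1.16), and its reads can be split with near-identical copies. Xlr5a, an X-linked gene of a multicopy family, had 33.5, 11.1 and 26.2 CPM. Zcchc12, a zinc finger gene, had 13.4, 1.23 and 7.29 CPM, which is 1 UMI in the control. Hspb1, a small heat shock protein, had 110 UMIs in cKO and 0 in the control, at least 2.82-fold higher against a floor of 3 UMIs in the control sum, and 10.4, 0 and 6.80 CPM. Hspb1 was at 1086, 1306 and 1081 CPM in the myoid-like cells. Of 10 measured genes that the study named for its germ cells, 0 were at least 2-fold higher in cKO and 3 at least 2-fold lower (Meig1, Rsph1 and Hspa2), and the study chose them on these samples. Among them Ubb, a ubiquitin gene, had 431, 632 and 511 CPM and Piwil2, a piRNA-binding protein, 173, 175 and 151 CPM. The study reported Meig1, Rsph1, Hspa2, Ubb, Clgn and Piwil2 as lower in differentiating spermatogonia of cKO mice. That is another class than the cells measured here, so these values do not repeat its comparison.

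Set against the next classes of spermatogonia within the same library, the Gfra1-positive cells held the higher levels of the GDNF response and stem genes, most of which the rule did not use. In the cKO library Dusp6 had 51.7 CPM in Gfra1-positive, 18.4 CPM in progenitor-like and 4.48 CPM in Kit-positive-like cells, and Etv4 had 26.7, 13.8 and 7.07 CPM. Eomes had 17.4, 6.41 and 3.11 CPM and Lhx1 23.3, 5.58 and 1.55 CPM in the same 3 classes. Plvap had 20.3, 4.75 and 2.42 CPM and Foxc2 38.4, 18.0 and 3.11 CPM. In the control library Dusp6 had 45.5, 7.72 and 0.879 CPM, Eomes 22.1, 2.38 and 0.732 CPM, Lhx1 54.1, 4.16 and 2.05 CPM and Foxc2 33.2, 12.5 and 0.293 CPM. The order of the 3 classes was thus alike in both genotypes for these 4 genes.

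Progenitor genes ran the other way, with their highest level in progenitor-like cells, where the class rule used several of them. Neurog3 had 9.28 CPM in Gfra1-positive, 22.3 CPM in progenitor-like and 12.1 CPM in Kit-positive-like cells of the cKO library, Upp1 60.2, 110 and 70.9 CPM and Nanos3 68.4, 102 and 63.8 CPM. Egr4 was also highest in progenitor-like cells, with 291, 372 and 239 CPM in cKO, 261, 337 and 35.6 CPM in control and 240, 325 and 54.7 CPM in Tomato-negative cells.

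The step from Gfra1-positive to Kit-positive-like cells was smaller in the cKO library for several genes of undifferentiated cells. The log2 difference of Gfra1-positive over Kit-positive-like cells was 0.41 in cKO, 2.1 in control and 2.0 in Tomato-negative cells for Zbtb16, with intervals of 0.31 to 0.51, 1.85 to 2.34 and 1.84 to 2.17. It was 0.10, 3.07 and 2.42 for Nanos3, and -0.24, 2.42 and 1.65 for Upp1. For Ccnd2 it was 0.68, 3.04 and 1.77, and for Ret, which the rule used, so that its values are a description, 1.72, 4.82 and 4.36. For Zbtb16, Nanos3, Upp1 and Ccnd2 most of the difference lay in the Kit-positive-like cells. Zbtb16 was at 188 CPM in those of cKO and 60.8 CPM in those of control. In the same order Nanos3 was at 63.8 CPM and 6.88 CPM, Upp1 at 70.9 CPM and 8.79 CPM and Ccnd2 at 259 CPM and 75.1 CPM. In the Gfra1-positive cells Nanos3 was at 68.4 CPM in cKO and 57.8 CPM in control, and Zbtb16, Upp1 and Ccnd2 had the levels given above. Of these, Ccnd2 was lower in cKO than in control Gfra1-positive cells with an interval off 0, so part of its difference lay there. The Kit-positive-like class is set by its rule and not by a stage, and which cells a Kit UMI gathers in each library was not tested.

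Inside the Gfra1-positive cells, those with at least 2 Gfra1 UMIs were set against those with exactly 1. They numbered 337 and 313 in cKO, 32 and 44 in control and 70 and 52 in Tomato-negative. Their median depths were 14100 and 16510 UMIs in cKO, 10470 and 10770 in control and 15460 and 17250 in Tomato-negative, so cells with more Gfra1 were not the deeper ones. This division was made after the data were seen. In cKO, 14 of 15 stem genes were higher in the cells with more Gfra1 and 13 had an interval above 0, with a median log2 difference of 1.31. Of all 13397 genes measured in this split 51.9% were higher and 14.5% had an interval above 0, with a median of 0.015. Of 7 progenitor genes 6 had an interval below 0, with a median of -0.78, as did 11.6% of all genes. The stem genes summed to 413 CPM in cells with at least 2 Gfra1 UMIs and 186 CPM in cells with 1, a log2 difference of 1.15 (1.04 to 1.26).

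Lhx1 had 35.7 CPM in cKO cells with at least 2 Gfra1 UMIs and 11.5 CPM in those with 1, a log2 difference of 1.63. Eomes had 26.0 and 9.27 CPM (1.48), and Etv5, a rule gene, 58.5 and 23.7 CPM (1.30). Epha2, an ephrin receptor, differed by 1.83 on the log2 scale, Plvap by 1.81, Foxc2 by 1.31, Bcl6b by 1.22 and Spry4 by 1.2. On the other side Rarg had 8.92 CPM in cells with at least 2 Gfra1 UMIs and 29.8 CPM in cells with 1, a log2 difference of -1.73, Stra8 had 51.4 and 142 CPM (-1.47), Upp1 differed by -1.0, Neurog3 by -0.90 and Sohlh1 by -0.78. The retinoic acid pathway list went both ways, with 2 of 15 members with an interval above 0 and 5 below.

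In the Tomato-negative library all 9 stem genes measured were higher in the cells with more Gfra1 and 6 had an interval above 0, with a median of 1.38. Of all 9459 genes measured there 53.1% were higher and 6.87% had an interval above 0. Of 6 progenitor genes 5 had an interval below 0, as did 6.08% of all genes. The stem genes summed to 384 CPM in cells with at least 2 Gfra1 UMIs and 191 CPM in cells with 1, a log2 difference of 1.0 (0.75 to 1.26). Eomes differed by 2.18, Lhx1 by 1.38, Rarg by -1.28 and Upp1 by -1.71. Stra8 differed by 0.81 there, opposite in sign to cKO. Cell cycle lists moved with the split too. Of 42 S phase genes 23 had an interval above 0 and 0 below in Tomato-negative cells, against 4 above and 12 below in cKO. Of 53 G2/M genes in cKO 4 were above and 26 below, and of 52 in Tomato-negative 7 were above and 6 below.

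In the control library the stem genes were near even between the 2 groups of cells. They summed to 336 CPM in cells with at least 2 Gfra1 UMIs and 326 CPM in cells with 1. The log2 difference was 0.05 (-0.32 to 0.40), an interval below those of cKO and of Tomato-negative. It rests on 32 and 44 cells and leaves out the spread between cells. The control cells were also shallower, so a cut at 2 UMIs need not mean the same Gfra1 level. Whether the control differs from the other libraries was not tested. Of 5 stem genes with 20 counts 3 were higher and 0 had an interval off 0, against 50.6% of all 6627 genes higher and 2.41% with an interval above 0. Of 5 progenitor genes 1 had an interval below 0, against 2.76% of all genes, and their sum differed by -0.44 (-0.80 to -0.10). Single genes rest on few UMIs in these 76 cells: Rarg differed by -2.54, Upp1 by -1.11 and Etv5 by 1.18.

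**Figure D5:**
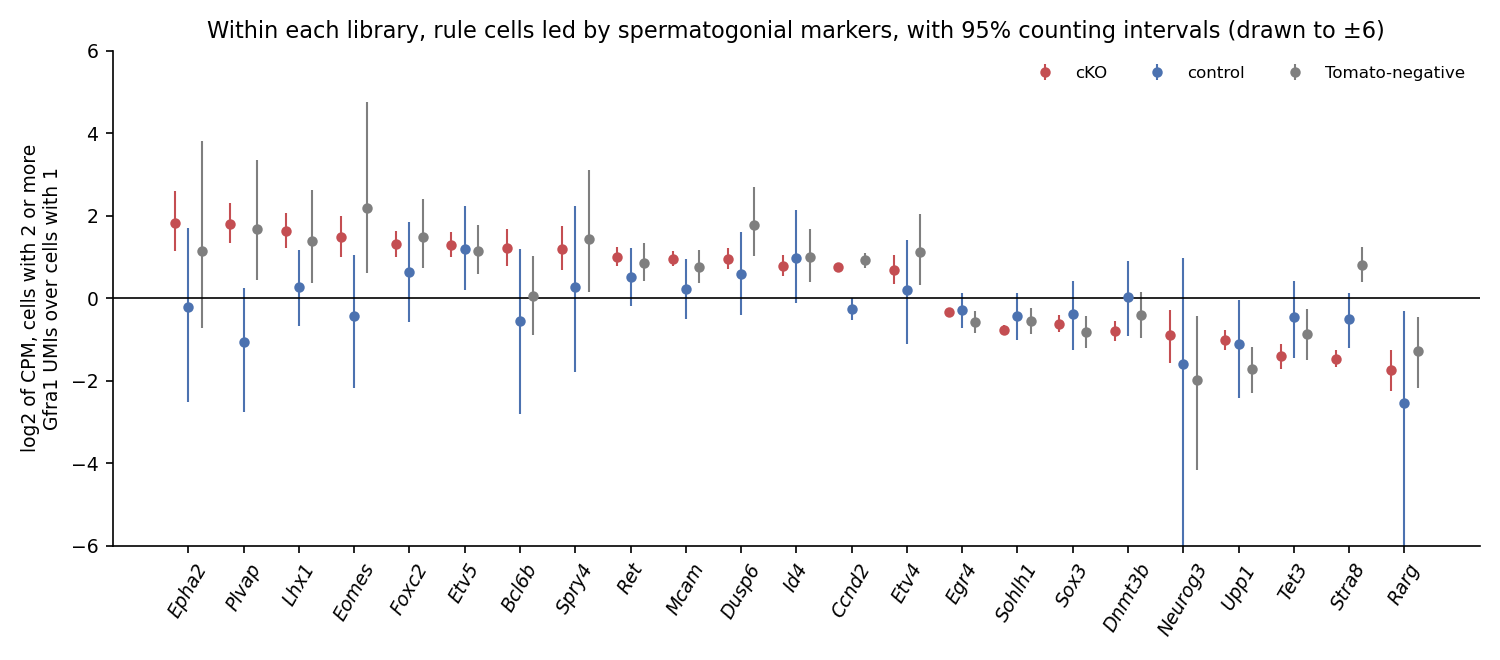
Log2 difference of cells with at least 2 Gfra1 UMIs over cells with 1 (y axis) for named genes (x axis) within the cKO, control and Tomato-negative libraries, spermatogonia-led cells only, with exact 95% intervals cut at the edges of the plot. In the cKO library Lhx1 (1.63), Eomes (1.48) and Etv5 (1.30) lie above 0, where the control has 0.27 for Lhx1 and -0.42 for Eomes, and Rarg (-1.73), Stra8 (-1.47) and Upp1 (-1.0) below it.

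Single cells carried both kinds of gene. A UMI of at least 1 of 8 stem genes (Eomes, Nanos2, Lhx1, Bcl6b, T, Pdx1, Shisa6 and Pax7) was found in 56.9% of cKO, 55.3% of control and 60.7% of Tomato-negative cells. A UMI of at least 1 of 5 progenitor genes (Neurog3, Sox3, Rarg, Nanos3 and Upp1) was found in 78.8%, 65.8% and 81.1% of them, and UMIs of both sets in 39.4%, 35.5% and 43.4%. After each cell was thinned to 3000 UMIs, which left out 6 cKO, 1 control and 0 Tomato-negative cells, the stem set was found in 23.0%, 26.7% and 21.3%, the progenitor set in 42.5%, 37.3% and 49.2%, and both in 5.59%, 8.00% and 4.92%. At equal depth the cKO and control shares differed by less than their counting intervals for each of these sets. Eomes alone was found in 20.2% of cKO, 19.7% of control and 14.8% of Tomato-negative cells, and in 0.0457%, 0% and 0% of myoid-like cells without a germ cell UMI. Stra8 was found in 44.8%, 32.9% and 44.3% of the spermatogonia-led cells and in 0.639%, 2.36% and 2.39% of the myoid-like cells, and thinned to 3000 UMIs in 18.5%, 16.0% and 18.9% of the spermatogonia-led cells. At equal depth the share of Gfra1-positive cells with a Stra8 UMI was thus near the same in the 3 libraries, although each held a UMI of Gfra1 and none of Kit.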

How the data were processed

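Single testis cells were measured by 10x Chromium 3′ RNA sequencing. The deposited tables hold raw UMI counts per gene and cell, which the authors made with Cell Ranger 2.1.1 on GRCm38. They filtered and clustered cells with Seurat 3.1, and no cluster labels were used here. The control cells of the merged table equalled those of the control table in every value and were counted once. The barcodes numbered 7252 in cKO, 6264 in control and 7626 in Tomato-negative. Cells with at least 200 genes and at most 10% mitochondrial UMIs were kept, with no upper gene limit. This left out 214 cKO, 140 control and 1392 Tomato-negative barcodes. The kept and removed cells together held 68602272 UMIs in cKO, 90453018 in control and 195380762 in Tomato-negative.

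UMIs were summed per library and class and given as CPM with exact Poisson 95% intervals. Shares have Clopper-Pearson 95% intervals. Differences are log2 ratios of cKO over control with 0.5 added to counts, and their intervals are exact conditional binomial intervals. Genes with at least 20 counts over both libraries were compared, and calls mean at least 2-fold. Counts were thinned to 3000 UMIs per cell for shares of cells with a UMI, which left shallower cells out. Doublets were called with Scrublet at an expected rate of 0.06 and kept. They were 334 cKO, 215 control and 375 Tomato-negative cells. Python 3.11.15, scanpy 1.11.5 and scipy 1.17.1 were used. The interval code was tested on simulated data.

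The members and the gene lists were chosen with earlier results of these data known. Named genes are the rule genes, the 12 highest and 12 lowest with at least 100 counts by the interval end nearest to 0, list members past 2-fold with an interval off 0 and the most abundant members, and genes named by the study. Other genes were added after their values were seen, as background for the members. The checks of spermatogonia-led cells, the comparator classes limited to them, the myoid-like background without a germ cell UMI and the split by Gfra1 UMIs were also added after seeing the data. Myoid-like cells had at least 3 Acta2 UMIs and a Myh11 UMI, and Sertoli-led cells had a Sox9 UMI and at least 10 Sertoli marker UMIs, more than of any other somatic list. Alternatives were thinning, the rule at equal depth, the per-cell mean, spermatogonia-led cells, at least 2 Gfra1 UMIs, at most 3500 genes, a lower mitochondrial limit, no doublets, count limits and median-of-ratios scaling.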

Additional observations from a re-analysis of the deposited data

How the results depend on the processing

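Each condition had 1 library, so nothing measures variation between mice, and the 76 spermatogonia-led control cells limit every low gene. No paired analysis was possible because each condition had 1 library and no sample shared a replicate. In the spermatogonia-led cells 157 of 208 values of gene lists and 574 of 688 values of named genes stayed within their main counting interval under the other settings, 51 and 107 moved and 0 and 7 turned. The settings for spermatogonia-led cells were chosen after seeing the data.

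The share of germ cells, cKO over control, was 9.37 for all rule cells, 17.4 with the rule applied to cells thinned to 3000 UMIs, 15.1 for spermatogonia-led cells alone and 15.8 with at least 2 Gfra1 UMIs. For spermatogonia-led cells it was 15.1 (11.9 to 19.4), with 23.2 (13.7 to 42.1) at equal depth and 11.3 (5.48 to 25.1) with at most 3500 genes per cell. The last 2 rest on 15 and 11 control cells. Over all rule cells the genes at least 2-fold higher in cKO numbered 6775, against 1090 with counts thinned to 3000 UMIs, 682 with the rule at equal depth, 1798 with the mean of per-cell CPM, 615 for spermatogonia-led cells alone, 2559 with at least 2 Gfra1 UMIs and 103 with at most 3500 genes. Those at least 2-fold lower numbered 3936, against 1459, 874, 829, 2367 and 113 under the same settings without the per-cell mean, 7632 with at least 1 count and 2454 with at least 100 counts. For spermatogonia-led cells the genes at least 2-fold higher numbered 615, against 398 thinned, 923 with the rule at equal depth, 122 with at most 3500 genes, 1029 with at least 1 count and 106 with at least 100 counts. Those at least 2-fold lower numbered 829, against 506 thinned, 89 with at most 3500 genes, 6960 with at least 1 count and 119 with at least 100 counts. The limits on counts change the number of genes compared, and the limit of 3500 genes leaves few cells. For the other settings the cause was not tested. The median log2 difference of all genes in all rule cells was 0.69, and 0.54 under median-of-ratios scaling. In spermatogonia-led cells it was -0.09 and -0.08.

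Summed levels of lists over all rule cells turned sign in 25 of 234 values. With the rule at equal depth, the log2 difference was -0.094 for stem genes, 0.14 for differentiating genes, -0.012 for the PI3K pathway, -0.36 for dissociation stress, -0.13 for DNA methylation, -1.34 for myoid, -0.67 for stromal and -3.93 for immune markers. In spermatogonia-led cells alone it was -0.15 for stem genes, -0.002 for undifferentiated genes, -0.13 for dissociation stress, -0.27 for DNA methylation, -0.036 for endothelial and -0.75 for immune markers. With at most 3500 genes it was -0.062 for undifferentiated genes, -0.14 for progenitor genes, -0.16 for DNA methylation, -0.038 for the spermatogonial list, -0.52 for Sertoli, -2.39 for endothelial and -3.04 for immune markers, and 0.58 for Smcp. Thinned to 3000 UMIs it was -0.14 for endothelial and -0.38 for immune markers. Immune markers were at -0.39 by the per-cell mean and -0.49 without called doublets. In spermatogonia-led cells, with at most 3500 genes, Gm34680, Myh11, Wt1 and Zcchc12 each stood at -1.17, Prss50 at 0.42 and Tpi1 at 2.0, and Tpi1 stood at 0.44 when thinned to 3000 UMIs. The cause of these turns was not tested.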
